A study of Homo sapiens with 8 samples.

Results

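The 10 genes described here, KLHL14, KANK1, SMIM43, GPRIN3, ASB13, TTLL11, PHTF1, DMBX1, KRT80 and SGSM1, were chosen by the size of their fall in deposited probe intensity, against untreated cells, when the receptor CD30 was bound on lymphoma cells. All 10 had a probe that passed the filter on dim signals, out of 8509 named genes tested. RNA was taken from Karpas299 cells, a single established line of CD30-positive anaplastic large cell lymphoma, and read on 8 Illumina HumanHT-12 v3 bead arrays. Each of 4 groups had 2 biological duplicates. After a preculture of 16 h the cells stayed in the same medium and were left untreated or given CD153-Fc, T104 or both for a further 8 h. CD153-Fc is the CD30 ligand fused to an antibody Fc part, and T104 is an agonistic monoclonal antibody against CD30. Each protein was used at 10 µg/ml, so the cells given both received both at full dose. Neither an unfused Fc part nor a control antibody formed a group, so effects of these proteins that do not run through CD30 cannot be told apart from those that do.

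CD30, encoded by TNFRSF8, is a receptor of the tumour necrosis factor receptor family that has no kinase of its own. It recruits TRAF adaptor proteins and activates NF-kB and MAP kinase pathways, and it is a defining surface antigen of anaplastic large cell lymphoma. The 10 genes form no single pathway. KLHL14 and ASB13 belong to families of substrate adaptors for cullin ubiquitin ligases. KANK1, TTLL11 and KRT80 belong to families of the cell cortex, of tubulin modification and of intermediate filaments. SGSM1 and GPRIN3 belong to families linked to small and heterotrimeric G proteins. DMBX1 encodes a homeobox transcription factor, and PHTF1 and SMIM43 encode membrane proteins.

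Mean intensity per array lay between 722.4 and 850.1, and between 10713 and 12967 of 48797 probes were detected, meaning that the deposited detection p-value was under 0.01. The 2 untreated arrays differed more from each other than the duplicates of any treated group (SD of the log2 difference over all features 0.445, against 0.226 to 0.262). Of 10 genes listed as markers of Karpas299, 7 were detected on all 8 arrays, among them ALK, GZMB and PRF1. NPM1 and CLU of the same list were not detected on any array, at no more than 130.6 and 175.5. None of the probes of 4 B-cell markers or 5 epithelial markers was detected on any array, and of 5 myeloid markers CSF1R and CD68 were detected on all 8 and ITGAM on 1. TNFRSF8 itself was detected on at most 2 arrays. In bulk RNA, fewer cells carrying a transcript and less RNA per cell cannot be told apart.

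Promoter windows of 7 of the 10 genes were available from RefSeq on GRCh38.p14, 13 windows in all, each spanning the sequence just upstream of a transcript start and a short stretch after it. No window was available for KLHL14, GPRIN3 or KRT80. The first listed window is shown for 4 of the 7 genes, which do not cover every outcome. KANK1 and SGSM1 stayed detected in all 4 groups, and SMIM43 and DMBX1 had the largest bounds on their falls with T104 and with both agents under the processing used here. Capitals mark matches to an NF-kB-like motif (GGG, any 5 bases, CC) on either strand. The KANK1 window is chr9:470045-470344 on the plus strand and the SGSM1 window chr22:24805961-24806260 on the plus strand. The DMBX1 window is chr1:46489586-46489885 on the plus strand and the SMIM43 window chr4:121765384-121765683 on the minus strand.
KANK1: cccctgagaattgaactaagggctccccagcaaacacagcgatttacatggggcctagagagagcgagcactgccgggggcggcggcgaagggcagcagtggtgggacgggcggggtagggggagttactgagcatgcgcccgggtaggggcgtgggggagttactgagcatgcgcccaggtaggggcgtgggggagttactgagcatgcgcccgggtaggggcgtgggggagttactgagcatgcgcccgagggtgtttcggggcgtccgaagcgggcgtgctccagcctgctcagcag
SGSM1: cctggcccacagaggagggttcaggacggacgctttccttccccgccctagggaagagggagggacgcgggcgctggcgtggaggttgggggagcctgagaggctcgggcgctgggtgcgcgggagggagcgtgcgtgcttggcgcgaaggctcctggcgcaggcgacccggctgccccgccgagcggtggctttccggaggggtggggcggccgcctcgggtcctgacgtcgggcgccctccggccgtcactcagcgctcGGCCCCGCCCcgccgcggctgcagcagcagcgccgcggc
DMBX1: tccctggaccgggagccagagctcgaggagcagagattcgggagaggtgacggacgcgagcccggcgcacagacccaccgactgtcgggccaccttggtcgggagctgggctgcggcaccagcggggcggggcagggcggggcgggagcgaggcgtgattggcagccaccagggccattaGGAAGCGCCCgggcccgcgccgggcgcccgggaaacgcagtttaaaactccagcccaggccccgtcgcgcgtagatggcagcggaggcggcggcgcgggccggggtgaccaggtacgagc
SMIM43: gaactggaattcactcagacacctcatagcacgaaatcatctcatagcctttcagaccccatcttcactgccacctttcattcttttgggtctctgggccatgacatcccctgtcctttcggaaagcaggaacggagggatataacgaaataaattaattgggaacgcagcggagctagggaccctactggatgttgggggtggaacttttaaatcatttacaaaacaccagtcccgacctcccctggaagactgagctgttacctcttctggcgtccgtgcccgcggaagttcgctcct
The SGSM1 and DMBX1 windows each hold 1 match and the KANK1 and SMIM43 windows printed here hold none.

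Over the 13 windows, 6 held a match to the NF-kB-like motif on either strand (46.2%), against 58.7% of all 35116 windows of the same length. The AP-1 motif TGANTCA was found in 1 window, a PHTF1 window (7.69%, against 7.71% of all windows). The STAT-like motif TTCNNNGAA was found in none of the 13, against 7.66% of all windows. An E-box, CANNTG, lay in 7 windows (53.8%, against 68.7%), and TATAAA lay in 3 windows of KANK1 and TTLL11 (23.1%, against 11.5%). No matches of different motifs overlapped in these windows. The windows had a median GC content of 67.0% and a median of 23 CpG dinucleotides, against 58.7% and 14 over all windows. These counts describe letters in the reference, and no binding was measured.

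In untreated cells the probes of all 10 genes were detected on both arrays. With CD153-Fc, 8 of the 10 were still detected on both arrays, and GPRIN3 and KRT80 on neither. With T104 only KANK1 and SGSM1 were detected on both arrays, DMBX1 on 1 array, and the other 7 on neither. With both agents KANK1 and SGSM1 were again detected on both arrays and the other 8 on neither. The word silenced therefore describes a loss of detection at p under 0.01 for 8 genes with both agents and not for KANK1 or SGSM1. It depends on that threshold. With both agents the deposited detection p-values of KLHL14, SMIM43, ASB13, TTLL11 and DMBX1 lay between 0.0105 and 0.0184, so these would count as detected at p under 0.05. Those of GPRIN3 were 0.0461 and 0.0501, of PHTF1 0.0606 and 0.0171, and of KRT80 0.236 and 0.0501. Of 9595 features detected on both untreated arrays, 82 (0.855%) were undetected on both arrays given CD153-Fc, 427 (4.45%) on both given T104 and 645 (6.72%) on both given the 2 agents together. The 10 genes were chosen for their falls, so nothing is read from their excess over these shares.

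The detection limit itself moved between arrays. The lowest detected intensity ran from 194.8 on CD153-Fc replicate 2 to 265.5 on T104 replicate 2, and the arrays of both agents had limits of 251.7 and 264.7. PHTF1 shows what this does, since 258.8 on T104 replicate 2 was not detected while 254.6 on CD153-Fc replicate 2 was. At 1 common limit of 265.5 for all arrays, a choice made after the data were seen, all 10 genes exceeded it on both untreated arrays. With CD153-Fc 4 genes exceeded it on both arrays, 2 on 1 array and 4 on neither. With T104, and with both agents, KANK1 and SGSM1 exceeded it on both arrays and the other 8 on neither.

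**Figure D1:**
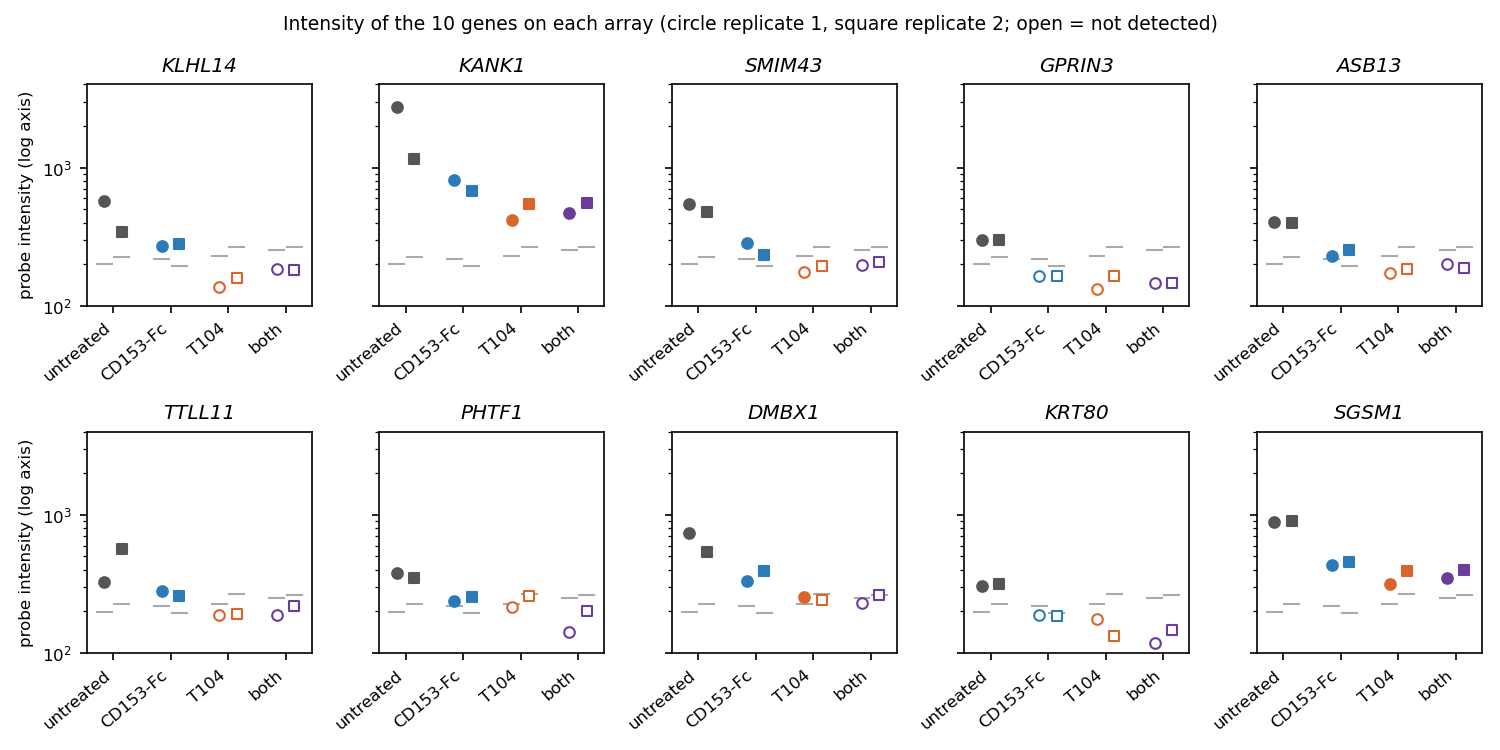
Intensity of the probe of each of the 10 genes on each of the 8 arrays (log axis), by treatment; circles are replicate 1, squares replicate 2, open symbols arrays where the probe was not detected, and grey dashes the lowest detected intensity of that array. KANK1 and SGSM1 stay above the dashes in every group, while GPRIN3 and KRT80 lie below them in all 3 treated groups.

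KLHL14 is a BTB-kelch protein of the family that brings substrates to cullin-3 ubiquitin ligases, and its transcript is known from B cells. Its probe read 577.7 and 339.7 on untreated arrays 1 and 2, 269.0 and 280.7 with CD153-Fc, 137.5 and 159.7 under T104, then 183.7 and 181.8 with both agents. Both untreated arrays lay above both CD153-Fc arrays, and all arrays with T104 lay below those without it. The log2 change against untreated was -0.72 after CD153-Fc, -2.44 after T104 and -1.76 after both (SE 0.28 each, n = 2 arrays per group). Since the probe was not detected with T104, its fold there is a lower bound, with the undetected probe replaced on each treated array by that array's weakest detected signal, or left at its own value where that was higher. That bound was at least 2.05-fold lower with T104 and at least 1.78-fold lower with both. Bounds, like the fitted changes, are on the background-corrected and normalized scale, and they depend on that correction. Without it all 30 changes of the 10 genes against untreated were smaller, some by much. With T104, KLHL14 then changed by -1.47 in place of -2.44, GPRIN3 by -0.92 in place of -1.67 and KANK1 by -1.79 in place of -2.03. Of the 17 bounds, 3 exceeded the fold then found, those of KRT80 with CD153-Fc, PHTF1 with T104 and DMBX1 with both agents. A second KLHL14 probe was not detected on any array, at 108.1 to 176.5.

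ASB13, an ankyrin-repeat protein with a SOCS box that joins substrates to a cullin-5 ligase, had untreated arrays that agreed closely, at 404.1 and 396.1. It read 230.8 and 254.4 with CD153-Fc, 173.2 and 183.1 under T104, then 200.9 and 189.1 with both agents. No group overlapped another, with untreated highest and T104 lowest. Log2 changes against untreated were -0.84, -1.72 and -1.39 in that order of treatments (SE 0.22), with bounds of at least 1.81-fold lower for T104 and at least 1.57-fold lower for both.

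KANK1, which links focal adhesions to the cortical microtubule machinery and limits actin polymerisation, was detected throughout. It read 2736 and 1147 in untreated cells, 809.1 and 678.4 with CD153-Fc, 420.2 and 541.7 under T104, then 472.9 and 557.0 with both agents. Untreated array 1 stood far above untreated array 2, yet every treated array was below both, and the T104 arrays overlapped those with both agents. On the log2 scale it changed by -1.21, -2.03 and -1.80 with CD153-Fc, T104 and both (SE 0.30). Since KANK1 was detected on all 8 arrays, these are measured changes and not bounds. Its 2 other probes were not detected on any array.

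TTLL11, a polyglutamylase that lengthens glutamate side chains on tubulin, had untreated arrays that differed widely. It read 324.8 and 563.6 in untreated cells, 282.9 and 256.6 with CD153-Fc, 187.3 and 191.4 under T104, then 189.1 and 217.4 with both agents. Before normalization untreated array 1 lay only a little above the CD153-Fc arrays, and after it the 2 groups overlapped. The fitted log2 change was -0.70 after CD153-Fc, -1.64 after T104 and -1.39 after both (SE 0.33), with bounds of at least 1.94-fold lower for T104 and at least 1.69-fold lower for both. A second TTLL11 probe was detected only on untreated array 1, at 254.5. It read 225.3 on untreated array 2 and 117.5 to 154.4 on the 6 treated arrays, so its untreated arrays were the highest, and the order of those 2 arrays was the opposite of that at the first probe.

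KRT80, a type II keratin of epithelial intermediate filaments, read 303.8 and 318.0 in untreated cells and 189.9 and 184.6 with CD153-Fc. It read 176.1 and 132.8 with T104 and 118.6 and 146.5 with both agents. The untreated arrays stood apart from all 6 treated arrays, none of which detected the probe, and the T104 arrays overlapped those with both agents. Its log2 changes were -1.01, -1.64 and -2.01 with CD153-Fc, T104 and both (SE 0.32), and the bounds were at least 1.67-fold, 1.27-fold and 1.11-fold lower in the same order. Without background correction the change with CD153-Fc was 1.51-fold, less than its bound. The bound shrank from CD153-Fc to both agents while the fitted change grew, and the detection limits of the arrays with T104 were the higher ones. A second KRT80 probe was not detected on any array, at 85.95 to 125.7.

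SGSM1 encodes a protein with RUN and TBC domains that interacts with RAB and RAP family small G proteins. Its untreated arrays read 890.7 and 896.0, the CD153-Fc arrays 430.7 and 455.6, the T104 arrays 315.0 and 395.3, and the arrays with both agents 347.4 and 398.9. The untreated arrays were close to each other and far above the rest, and the T104 arrays overlapped those with both agents. SGSM1 was detected on all 8 arrays, and its log2 changes of -1.01, -1.50 and -1.29 (CD153-Fc, T104, both) carried the smallest SE of the 10 genes, 0.19. These values are from a single probe, and its 2 other probes were not detected on any array, at 91.31 to 166.7.

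GPRIN3 belongs to a family named for G protein-regulated induction of neurite outgrowth. It read 297.9 and 297.6 in untreated cells, 164.5 and 165.5 with CD153-Fc, 132.6 and 164.2 under T104, then 145.7 and 146.5 with both agents. Untreated cells stood apart, all 6 treated arrays were undetected, and the T104 arrays overlapped those with both agents. The log2 changes were -1.29, -1.67 and -1.70 with CD153-Fc, T104 and both (SE 0.27), and the bounds were at least 1.58-fold, 1.2-fold and 1.04-fold lower in the same order.

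DMBX1, a paired-class homeobox transcription factor known in the mouse from the developing midbrain, read 737.6 and 535.6 in untreated cells. It read 332.4 and 394.2 with CD153-Fc, 255.7 and 244.0 under T104, then 231.9 and 262.3 with both agents. Untreated arrays were above CD153-Fc arrays, which were above the remaining 4, and those 4 overlapped. The log2 changes were -0.81, -1.64 and -1.59 with CD153-Fc, T104 and both (SE 0.21), with a bound of at least 2.78-fold lower for both agents on that scale. Without background correction the change with both agents was 2.25-fold, less than that bound.

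PHTF1, an endoplasmic reticulum membrane protein first named as a putative homeodomain factor, lost detection with T104 by a narrow margin on the second array. It read 378.9 and 351.5 in untreated cells, 238.6 and 254.6 with CD153-Fc, 215.2 and 258.8 under T104, then 141.0 and 203.1 with both agents. The T104 arrays overlapped the CD153-Fc arrays, and the arrays with both agents were the lowest. The log2 changes were -0.62, -0.78 and -1.67 with CD153-Fc, T104 and both (SE 0.31), with bounds of at least 1.60-fold lower for T104 and at least 1.39-fold lower for both on that scale. Without background correction the change with T104 was 1.42-fold, less than its bound. When 1 array was left out at a time, the log2 change with both agents ran from -2.22 to -1.14.

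SMIM43, a small membrane protein also known as NEMEP, read 547.0 and 477.8 in untreated cells, 285.5 and 231.4 with CD153-Fc, 174.4 and 193.0 under T104, then 195.9 and 206.2 with both agents. The 4 groups did not overlap. The log2 changes were -1.16, -2.09 and -1.76 with CD153-Fc, T104 and both (SE 0.23), with bounds of at least 2.48-fold lower for T104 and at least 2.15-fold lower for both.

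**Figure D2:**
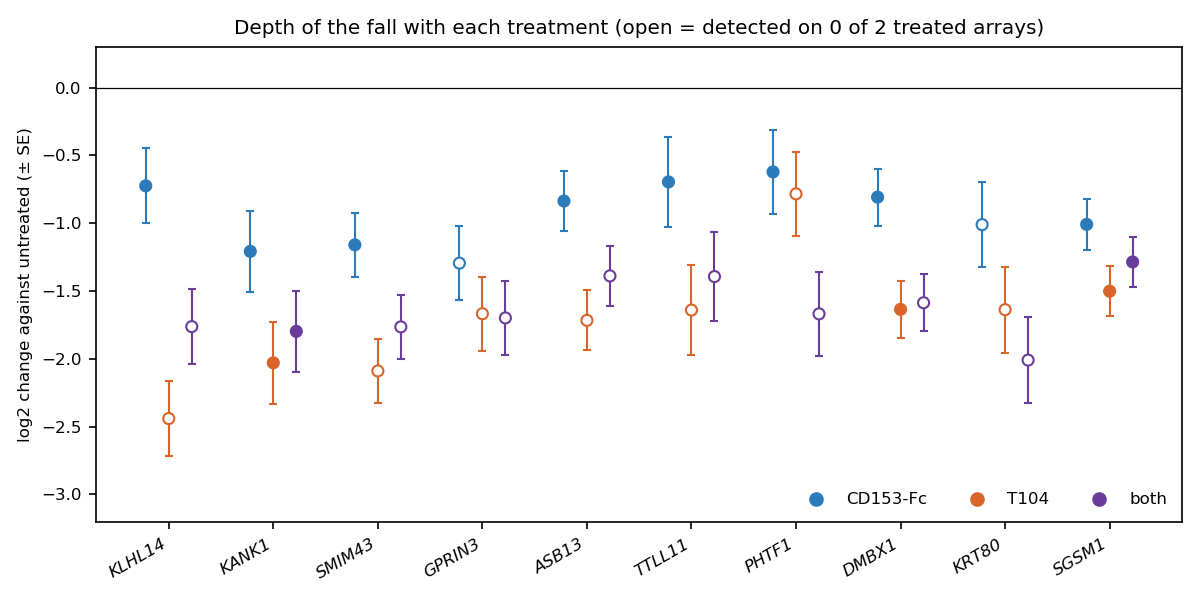
Log2 change against untreated for each of the 10 genes with CD153-Fc, T104 and both agents, as the fitted value ± SE (n = 2 arrays per group); open points mark treatments where the probe was detected on 0 of 2 arrays. All 30 points lie below 0, and the CD153-Fc point is the highest of the 3 for each gene.

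Across the 10 genes the median log2 change was -0.92 after CD153-Fc, -1.65 after T104 and -1.68 after both, against medians of -0.001, -0.02 and -0.018 over all 10183 features. With undetected genes set at their bounds the medians were -0.77, -0.996 and -0.79. All 10 genes were below 0 in each comparison, and all 10 had treated arrays below both untreated arrays with T104 or both agents, where 27.4% and 24.7% of all features did so. With CD153-Fc 9 did, all but TTLL11, beside 21.3% of all features. The model called 3 of the 10 lower with CD153-Fc, namely SMIM43, GPRIN3 and SGSM1, where 0.275% of all features were called lower. Without untreated replicate 2 that count was 6, beside 11.9% of features called lower in that fit, and without either CD153-Fc replicate it was 0, beside 0.00982% and 0.0196%. It called 9 lower with T104, all but PHTF1, beside 5.41% of features, and 10 lower with both, beside 2.85%. These contrasts chose the genes and share the untreated arrays, so the counts are a description and no test is given.

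The mean level followed the order untreated, CD153-Fc, both agents, T104 from high to low in 7 genes. In GPRIN3, PHTF1 and KRT80 T104 and both agents changed places. Against CD153-Fc, all 10 genes had lower means with T104. The median log2 difference was -0.83 as fitted and -0.34 with 5 undetected genes set at their bounds, and the arrays of 9 did not overlap, beside 25.2% of all features. The exception was PHTF1. GPRIN3 and KRT80 were undetected in both groups and kept their fitted values in the median of -0.34. With both agents against CD153-Fc the median was -0.65 as fitted, and the arrays of all 10 did not overlap, beside 22.8%. No bounded median is given for that comparison. SMIM43, ASB13 and PHTF1 were undetected with both agents, and the limits there lay above their mean CD153-Fc level, so no fall could be bounded. Of the 10, KLHL14 was called lower with T104 than with CD153-Fc, beside 0.0687% of all features. Its fitted log2 difference was -1.72 (SE 0.28) and -0.95 without background correction, but the probe was undetected with T104, so the difference is bounded only as at least 1.24-fold lower. The T104 arrays took part in choosing the gene, and the call was lost when any single CD153-Fc or T104 array was left out. For both agents against CD153-Fc limma called 0 of the 10 at adjusted p under 0.05, and 0% of features were called lower. At an unadjusted p under 0.05 there were 6 of the 10, all lower with both agents, beside 8.03% of all features in either direction. The treated arrays took part in choosing all 10 genes. The counts of both comparisons against CD153-Fc are therefore a description, and nothing is read from their excess over the shares of all features.

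With both agents against T104 alone, 7 of the 10 means were higher and 3 lower, with a median log2 difference of 0.22. There limma called 0 of the 10, as of all features (0%). An unadjusted p under 0.05 was found for 2 of the 10, beside 4.1% of all features. Those 2 were KLHL14, at 0.68 (SE 0.28), and PHTF1, at -0.89 (SE 0.31). The PHTF1 difference was -0.35 without replicate 1 of both agents and -1.43 without replicate 2. After normalization the arrays of these 2 groups overlapped in 5 genes, namely KANK1, GPRIN3, DMBX1, KRT80 and SGSM1. In the other 5 they did not, and 1 of these, PHTF1, was lower with both agents, beside 18.3% of all features that lay apart in that direction. Except for KANK1, SGSM1 and the single DMBX1 array, the values in both of these groups were below detection, so their order is that of undetected signals. The treated arrays also took part in choosing the genes, so these differences are a description.

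The depth of 3 of the falls turned on which untreated array was used. Between untreated arrays, replicate 2 minus replicate 1 was -1.19 for KANK1, -0.80 for KLHL14 and 1.24 for TTLL11 on the log2 scale. The T104 mean of KANK1 minus untreated array 1 was -2.62, and minus untreated array 2 it was -1.43. For KLHL14 those differences were -2.84 and -2.04, and with CD153-Fc in place of T104 they were -1.12 and -0.32. For TTLL11 the CD153-Fc differences were -0.07 and -1.32, and the T104 differences were -1.02 and -2.26. For the other 7 genes the 2 untreated arrays differed by 0.37 or less. For every gene and treatment the treated mean was below each untreated array taken singly.

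**Figure D3:**
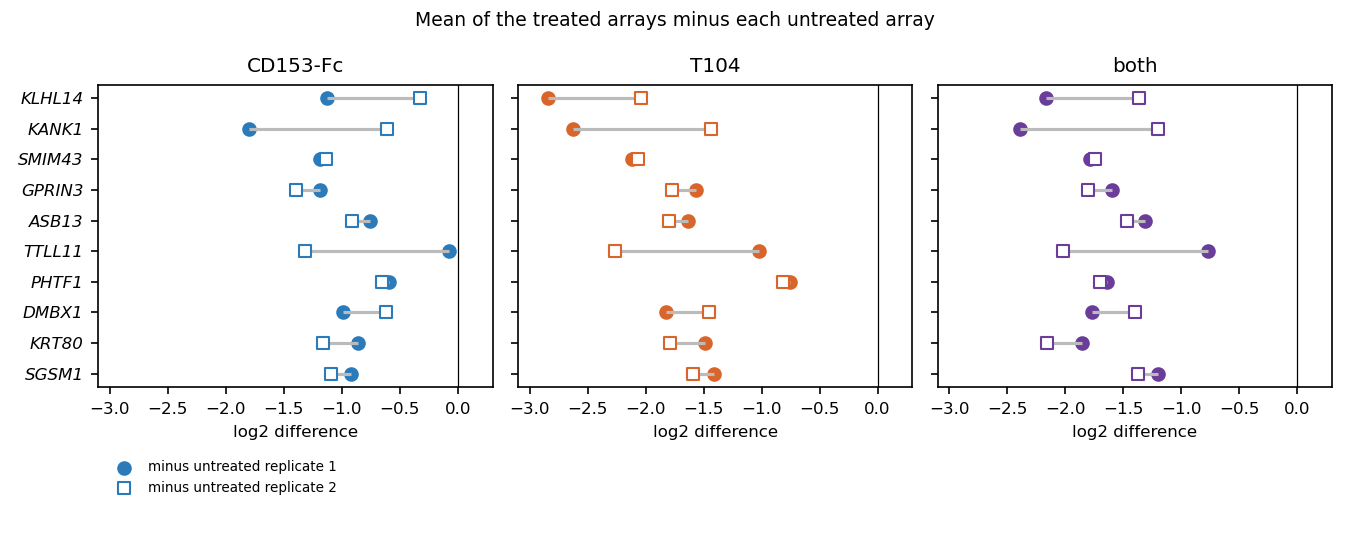
Mean of the 2 arrays of each treated group minus untreated replicate 1 (filled circles) and minus untreated replicate 2 (open squares), on the log2 scale, for each of the 10 genes. The 2 symbols lie far apart for KLHL14, KANK1 and TTLL11, by 0.80, 1.19 and 1.24, and all symbols lie below 0.

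Relatives of the 10 genes were tested as families listed by name and not by how they moved. Of 170 listed relatives, 138 had a probe and 56 passed the filter on dim signals. With T104 limma called 3 lower and 3 higher, 10.7% of the 56, beside 10.5% of all features. Both agents gave 2 lower and 1 higher, 5.36% beside 6.67% of features. With CD153-Fc limma called 0, beside 1.37% of features. At an unadjusted p under 0.05 there were 4 (7.14%), beside 15% of all features. The shares called with T104 and with both were near those of all features. Without untreated replicate 2 the numbers called rose to 13, 17 and 16 for CD153-Fc, T104 and both. These were 23.2%, 30.4% and 28.6% of the relatives, beside 25.9%, 33.6% and 32.9% of all features in that fit. With either replicate of both agents left out the number called with both was 0, beside 1.82% and 2.14% of features. Leaving out T104 replicate 1 or 2 gave 2 and 1 with T104, beside 3.47% and 2.81% of features.

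In the KLHL family 1 of 19 tested relatives fell and 2 rose with T104. KLHL3, a cullin-3 adaptor for WNK kinases, read 357.3 and 399.5 in untreated cells and was not detected with T104, at 211.1 and 202.1. Its log2 change was -1.18 (limma adjusted p = 0.00508), at least 1.67-fold lower. KLHL36 moved the other way, from 679.7 and 1145 in untreated cells to 2380 and 2386 with T104 and 1782 and 1890 with both. Its log2 change was 1.64 with T104 (limma adjusted p = 0.00129) and 1.39 with both (limma adjusted p = 0.0057), and every treated array was above both untreated arrays. KLHL6, known from B-cell receptor signalling, rose with T104 by 0.78 on the log2 scale (limma adjusted p = 0.0269), from 484.4 and 350.4 to 579.2 and 580.6. The T104 call was lost for KLHL3 without T104 replicate 2 and for KLHL6 without any one of the CD153-Fc or T104 arrays, and the KLHL36 call with both agents was lost without either array of that group.

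In the ASB family 1 of 6 tested relatives was called. ASB9 fell from 547.2 and 581.3 in untreated cells to 313.6 and 359.3 with T104 (log2 change -0.81, limma adjusted p = 0.0164) and to 288.4 and 303.9 with both (-0.96, limma adjusted p = 0.00923). Its groups did not overlap with untreated cells, and it stayed detected on all of these arrays. Of 14 tested SGSM and TBC1D relatives, which carry the TBC domain of RAB GTPase-activating proteins, TBC1D14 fell by 0.69 with T104 (limma adjusted p = 0.00897) and by 0.58 with both (limma adjusted p = 0.0321). It read 1832 and 1665 in untreated cells and 1033 and 1082 with T104. ASB9 and TBC1D14 lost each of these calls without either array of the treated group concerned, and TBC1D14 also lost its call with both agents without any one CD153-Fc or T104 array. Of 9 tested genes listed only because they share the SMIM name, SMIM3 rose by 1.08 with T104 (limma adjusted p = 0.00697), a call lost without either T104 array. It read 218.1 and 221.0 in untreated cells, where it was detected on array 1 only, and 336.8 and 324.3 with T104. limma called 0 of 4 TTL and TTLL relatives, 2 keratins, 1 GPRIN relative and 1 OTX-type homeobox relative with any treatment. An unadjusted p under 0.05 was found with T104 for 1 TTL or TTLL relative, beside 25.7% of all features. No KANK or PHTF relative passed the filter, so KANK1 and PHTF1 were the listed genes of their families that could be tested.

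**Figure D4:**
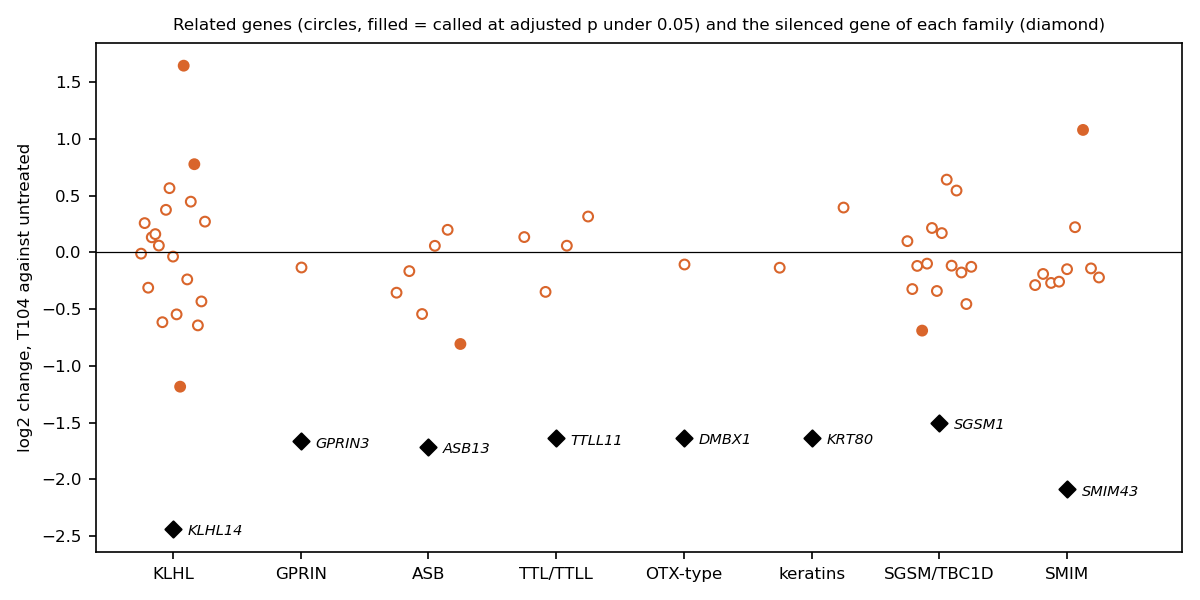
Log2 change with T104 against untreated for the tested relatives of 8 of the 10 genes (circles, filled where limma called them at adjusted p under 0.05) and for the gene itself (diamond), by family. The diamonds, genes chosen for their falls, lie between -2.44 and -1.50, while the relatives lie on both sides of 0.

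The genes whose 8-array profile was most like that of each of the 10 were named by the smallest root-mean-square difference between log2 profiles centred on their means. The 3 nearest of each gave 30 places filled by 22 genes, at differences of 0.12 to 0.32, and 3 of the 30 places were filled by one of the 10. PTPN22, a lymphoid phosphatase, was nearest to KLHL14 (0.21) and to KANK1 (0.24). TNFRSF19, a receptor of the same superfamily as CD30, was nearest to SMIM43 (0.20) and to ASB13 (0.14). PCDH18 was nearest to SGSM1 (0.12), SGSM1 to GPRIN3 (0.16) and EEPD1 to TTLL11 (0.20). ABCB9 was nearest to DMBX1 (0.19), SLC9A9 to KRT80 (0.22) and EEIG2 to PHTF1 (0.27). Like PHTF1, EEIG2 had its lowest level with both agents, at log2 changes of -0.67, -0.86 and -1.47 with CD153-Fc, T104 and both. Of all named genes, 3 fell at least as far as the median of the 10 in all 3 comparisons against untreated, and these 3 were among the 10, which were chosen for such falls.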

How the data were processed

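The authors deposited a non-normalized table with an intensity and a detection p-value per probe and array. Per the submitters' processing notes GenomeStudio was used, and the series' design text names BeadStudio, and no version of either is recorded in the sources used here. The authors also deposited processed intensities on a linear scale, in which each array's median was 119.696, 119.71, 119.685, 119.695, 119.703, 119.693, 119.691 and 119.716 (untreated, CD153-Fc, T104 and both agents, replicates 1 and 2 of each). Their log2 values correlated with the unprocessed ones at 0.9996 or more on each array, and how the arrays were made equal is not given there, so they served as an alternative.

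Here the deposited intensity values were background-corrected and quantile-normalized to log2 values with neqc of limma 3.58.1 in R 4.3.3, with an offset of 16. Probes detected at p under 0.01 on at least 2 of 8 arrays were kept (12543), and each gene was read at its brightest kept probe, giving 10183 features, of which 8509 were named. Names come from the platform annotation, which gives 28093 of the 48797 probes 1 symbol, 13 several and 20691 none. A group-means model over all 8 arrays (4 residual and 8.781 prior degrees of freedom) was fitted with lmFit and eBayes (trend) and p-values were adjusted by the Benjamini-Hochberg method over all features, with calls at adjusted p under 0.05. The fit was also run on simulated data with noise of the same size on all 8 arrays of a feature. That run does not cover the wider spread between the untreated arrays. Only 2 arrays per group, all of a single cell line, limit the precision. The p-values rest on a single spread per feature shared by all groups, although the untreated arrays differed more than the treated duplicates.

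The 10 genes and all lists were chosen with earlier results of these data known. Named genes are the 10, the 3 nearest profiles of each, called relatives and markers; named genes outside the 10 that fell as far as their median in all 3 comparisons would have been added. Promoter windows come from RefSeq. Alternatives are given in the closing section.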

Additional observations from a re-analysis of the deposited data

Results flagged for a closer look

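For 3 of the genes, every array moved down with CD153-Fc in cells without T104 and up with CD153-Fc in cells given T104. KLHL14 changed by -0.72 on the log2 scale with CD153-Fc alone and by 0.68 when CD153-Fc was added to T104. SMIM43 changed by -1.16 and 0.32, and ASB13 by -0.84 and 0.33. The difference between these effects was not tested. All 3 probes were below detection on every array with T104, so the rises compare undetected signals, and the genes were chosen for their falls.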

How the results depend on the processing

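All 546 values of the 10 genes against untreated under the alternatives were below 0. Of these, 452 stayed within 1 SD between duplicates of the reported value and 94 moved further. Median scaling moved the median of all features by -0.19, -0.20 and -0.31 with CD153-Fc, T104 and both agents. It changed the lower and higher calls from 28 and 112 to 33 and 57, from 551 and 520 to 910 and 317, and from 290 and 389 to 1428 and 210.

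Of the 10 genes, 3 were called lower with CD153-Fc. The count was 1 of 2 testable when probes had to be detected on all 8 arrays, beside 0.259% of features called lower. It was 0 in a fit of only the 2 groups, beside 0% of features. Leaving out 1 array gave 0 to 6, with 6 without untreated replicate 2 and 0 without either CD153-Fc replicate. For T104 (9 called) and both agents (10 called) the count was 2 of 2 testable with detection on all 8 arrays, beside 4.84% and 2.22% of features. T104 against CD153-Fc (1 called) gave 0 with detection on all 8 arrays, beside 0.0235% of features called lower. In a fit of only the 2 groups it gave 6, beside 1.65% of features. Both agents against CD153-Fc (0 called) gave 2 in such a fit, beside 0.628% of features. The counts of both comparisons also moved on leaving out 1 array. TTLL11 lost its call with T104 without either T104 replicate, KRT80 without T104 replicate 2, KANK1 with both agents without replicate 1 of that group. With both agents TTLL11 lost its call under 7 alternatives and PHTF1 under 2. The cause was not tested.

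Relatives called in a fit of only the 2 groups numbered 3 with T104 (6 reported) and 0 with both agents (3 reported). They numbered 4 for T104 against CD153-Fc and 2 for both agents against CD153-Fc (0 reported for each). In that order these were 5.36%, 0%, 7.14% and 3.57% of the relatives, beside 3.92%, 1.77%, 4.05% and 1.94% of all features. Median scaling gave 9 with both agents, 16.1% of the relatives, beside 16.1% of all features. Leaving out 1 array gave 0 to 13 with CD153-Fc (0 reported), 1 to 17 with T104, 0 to 16 with both agents, 0 to 3 for T104 against CD153-Fc and 0 to 2 for both agents against CD153-Fc, with the highest 3 counts against untreated all without untreated replicate 2. KLHL36 kept its call with T104 under all 19 alternatives, while KLHL6 lost it under 7 and TBC1D14 with both agents under 9.

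Same-numbered arrays did not deviate together (correlations of -0.10 to 0.01), so no pairing by number was seen. With 2 arrays per group this cannot show whether same-numbered samples belonged together. With a replicate block, 1 of the 10 was called lower with CD153-Fc. Over all features the block gave 7 lower calls there, in place of 28. Signal over background limits 8 of the 10 genes, whose folds with both agents are bounds.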
